A study of Mus musculus with 4 samples.

Results

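This account covers 10 genes that encode antioxidant enzymes, namely the glutathione peroxidases Gpx1, Gpx2 and Gpx4, the peroxiredoxins Prdx1, Prdx2 and Prdx5, thioredoxin (Txn1), the superoxide dismutases Sod1 and Sod2, and catalase (Cat). They were taken by symbol from a table of 18436 genes, in which all 10 were found. RNA was sequenced from cells of 4 C57BL/6 mice, sorted from dissociated intestinal crypts for the bright GFP signal that marks Lgr5-positive stem cells. The 2 Lgr5-CREPTWT mice carried Lgr5-EGFP-IRES-creERT2, which drives GFP and a tamoxifen-dependent Cre from the Lgr5 gene, and the 2 Lgr5-CREPTKO mice carried the same allele with CREPT fl/fl, in which Cre removes the third exon of Rprd1b. Both genotypes received tamoxifen by intraperitoneal injection, 1 mg daily over 5 days, with sorting on day 7, so that the controls too were treated and carried Cre. The study used animals of 6 to 8 weeks and of both sexes, without naming the sex of each sequenced mouse. Cre acts only where Lgr5 is expressed, and the GFP allele is silent in some crypts, so that the sorted cells represent the crypts that express it.

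Cells that respire and divide produce superoxide and hydrogen peroxide. Superoxide dismutases turn superoxide into hydrogen peroxide, in the cytosol (Sod1, a copper and zinc enzyme) and in mitochondria (Sod2, a manganese enzyme). Hydrogen peroxide is then removed by glutathione peroxidases with glutathione, by peroxiredoxins with thioredoxin, and by catalase in peroxisomes. Gpx2 is the gastrointestinal glutathione peroxidase and is known as a gene of the crypt base, while Gpx1 is made in most cells and Gpx4 reduces lipid peroxides in membranes.

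The 4 libraries were of RNA in FPKM (sequenced fragments divided by transcript length and by the size of the library). Totals were 495758 and 499327 FPKM in the Lgr5-CREPTWT mice and lower, at 468830 and 473662 FPKM, in the Lgr5-CREPTKO mice. There were no read counts, so the depth behind a value is unknown. Rprd1b, which encodes CREPT, was 17.7 and 18.1 FPKM in the Lgr5-CREPTWT mice and 6.65 and 7.36 FPKM in the Lgr5-CREPTKO mice. Olfm4, a marker of crypt base stem cells, was between 4932 and 5351 FPKM in every library, and 11 stem cell markers summed to 6003 to 6730 FPKM. Markers of stromal and endothelial cells summed to at most 0.400 FPKM and those of red blood cells to at most 4.33 FPKM in any library. Markers of other cells of the gut were present: those of Paneth cells summed to between 833 and 2452 FPKM, those of enterocytes to between 437 and 753 FPKM, and those of immune cells to between 8.93 and 63.3 FPKM, each highest in the second Lgr5-CREPTKO mouse and lowest in the first. The 12621 genes whose mean reached 0.5 FPKM, all 10 described here among them, were compared with limma on log2(FPKM + 0.5), with Benjamini-Hochberg adjustment over all of them. Fold changes below are on that scale, for Lgr5-CREPTKO against Lgr5-CREPTWT.

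None of the 10 genes had an adjusted p below 0.05 in limma's test (0 lower and 0 higher), against 2.67% of all genes tested called lower and 0.412% called higher. With the study's added threshold of an absolute log2 fold change above 1 the counts were again 0 and 0, against 1.01% and 0.127% of all genes tested. At an unadjusted p below 0.05, 5 were lower (Gpx1, Gpx2, Prdx1, Prdx2 and Txn1) and 1 was higher (Cat), where 15.2% and 9.27% of all genes tested were. Both Lgr5-CREPTKO values lay below both Lgr5-CREPTWT values in 7 of the 10 genes, and above them in 1 gene, Cat, while Gpx4 and Sod2 overlapped. Over all genes tested 31.0% were lower, 25.6% higher and 43.4% overlapped in this way. The median log2 fold change was -0.21 over the 10 genes and -0.01 over all genes tested. Summed over the 10 genes, the level was 2569 and 2999 FPKM in the Lgr5-CREPTWT mice and 2198 and 2187 FPKM in the Lgr5-CREPTKO mice. As a share of each library's total this was 0.518% and 0.601% against 0.469% and 0.462%. With 2 mice on each side, exact permutation cannot reach a two-sided p below 0.333, so the tests rest on the variance that limma shares between genes.

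**Figure D1:**
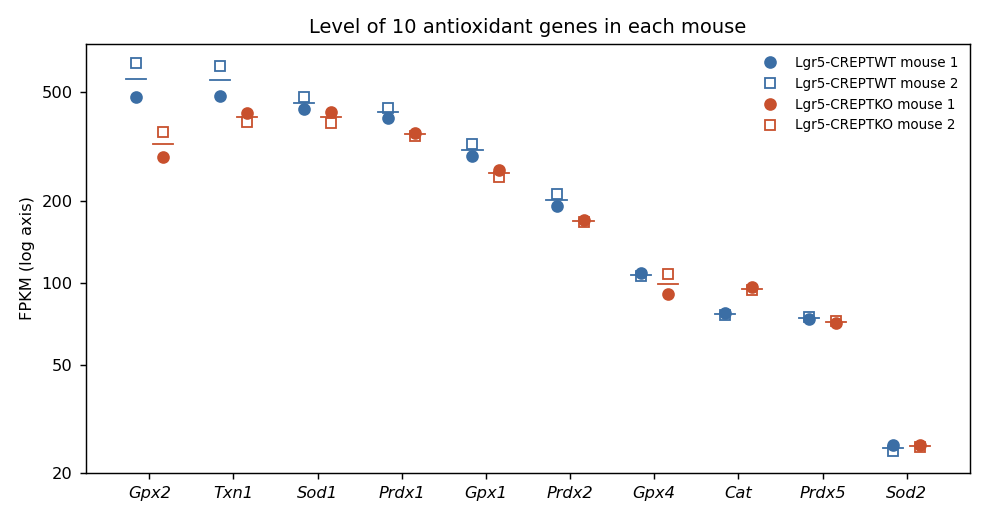
FPKM on a log axis of each of the 10 genes in each of the 4 mice, with Lgr5-CREPTWT in blue and Lgr5-CREPTKO in red; horizontal bars are means of 2 mice. Both Lgr5-CREPTKO points lie below both Lgr5-CREPTWT points in 7 genes and above them in Cat, with the widest gap in Gpx2.

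FPKM is a value per length of transcript, so levels can be set side by side between genes, but only roughly. Trends with transcript length and reads shared with gene copies, both described below, can bear on the order, by an amount that was not tested. In Lgr5-CREPTWT cells the order of mean levels was Gpx2, Txn1, Sod1, Prdx1, Gpx1, Prdx2, Gpx4, Cat, Prdx5 and Sod2. The ranges of Gpx2 and Txn1 overlapped, as did those of Sod1 and Prdx1, and the other neighbours did not. In Lgr5-CREPTKO cells Gpx2 came after Sod1, Txn1 and Prdx1. There the ranges of Sod1 and Txn1, of Prdx1 and Gpx2, and of Gpx4 and Cat overlapped. By mean level over the 4 libraries, Txn1 ranked 133 among the 18436 genes of the table, Gpx2 ranked 148, and Sod2, the lowest of the 10, ranked 3477.

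Gpx1, Gpx2 and Gpx4 are selenoproteins: each has a TGA codon inside its reading frame that is read as selenocysteine, the residue of the active site. The sequence around that codon is shown because the codon sets these peroxidases apart from the other 7 enzymes. It shows how alike the 3 genes are in that window only, not over their whole transcripts. Each line gives 63 bases of coding sequence from GENCODE M21 on GRCm38, 5′ to 3′ on the strand of the gene, with the selenocysteine codon in capitals.
Gpx1: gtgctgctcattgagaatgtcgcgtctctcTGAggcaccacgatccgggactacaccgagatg
Gpx2: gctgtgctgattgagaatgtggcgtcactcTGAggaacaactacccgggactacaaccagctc
Gpx4: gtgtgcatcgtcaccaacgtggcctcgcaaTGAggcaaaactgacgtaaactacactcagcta
The codon lies at chr9:108339451-108339453 on the plus strand in Gpx1 (exon 1 of 2), at chr12:76795256-76795258 on the minus strand in Gpx2 (exon 1 of 2), and at chr10:80054737-80054739 on the plus strand in Gpx4 (exon 3 of 7). Over these windows Gpx1 and Gpx2 shared 49 of 63 bases (77.8%), and each shared 35 of 63 (55.6%) with Gpx4. No word of 50 bases was shared between the transcripts of the 3 genes.

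Gpx2 (chr12:76792335-76795554, GRCm38.p6) had the largest difference of the 10 genes. It was 480.0 and 638 FPKM in the Lgr5-CREPTWT mice and 288 and 357 FPKM in the Lgr5-CREPTKO mice. The lowest Lgr5-CREPTWT mouse thus stood above the highest Lgr5-CREPTKO mouse, while the mice of each genotype also differed from each other. The means were 559 ± 112 FPKM (SD, n = 2) and 323 ± 48.8 FPKM (SD, n = 2), a level 42.3% lower in Lgr5-CREPTKO cells. The log2 fold change was -0.79 (95% interval -1.24 to -0.33, adjusted p = 0.0823 from limma's test). It was -0.58 without the second Lgr5-CREPTWT mouse and -0.99 without the first. A pseudogene, Gpx2-ps1, holds 18.9% of the 50-base words of the Gpx2 transcript, and its own value was at most 0.370 FPKM in any library. How reads from the shared stretches were divided between the gene and the pseudogene was not tested.

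Gpx1 (chr9:108339080-108340342, GRCm38.p6) was 291 and 324 FPKM in the Lgr5-CREPTWT mice and 259 and 244 FPKM in the Lgr5-CREPTKO mice. The genotypes did not overlap, with means of 307 ± 23.1 FPKM and 252 ± 10.6 FPKM (SD, n = 2). The log2 fold change was -0.29 (95% interval -0.51 to -0.07, adjusted p = 0.132 from limma's test). Gpx2 was 1.65 and 1.97 times the level of Gpx1 in the Lgr5-CREPTWT mice, and 1.11 and 1.46 times in the Lgr5-CREPTKO mice. This ratio within a library does not depend on how libraries are scaled, and the genotypes did not overlap in it.

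Gpx4 (chr10:80047166-80056439, GRCm38.p6) was 108 and 105 FPKM in the Lgr5-CREPTWT mice and 90.6 and 107 FPKM in the Lgr5-CREPTKO mice. The genotypes overlapped, with the first Lgr5-CREPTKO mouse alone below the rest. Its log2 fold change was -0.11 (95% interval -0.37 to 0.14, adjusted p = 0.532), and the transcript shares 68.9% of its 50-base words with gene copies that have no row of their own in the table.

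**Figure D2:**
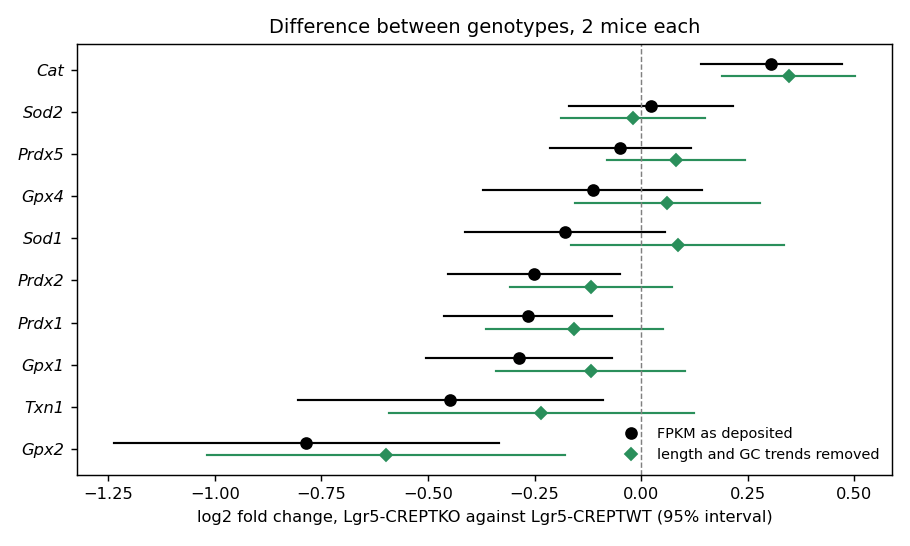
Log2 fold change of each of the 10 genes with its 95% interval from limma, 2 mice per genotype, from the FPKM as deposited (black) and after loess trends with transcript length and GC content were taken out from each library (green). The intervals of Gpx2 and Cat exclude 0 in both, and those of Txn1, Gpx1, Prdx1 and Prdx2 only in the first.

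Peroxiredoxins reduce peroxides through a reactive cysteine that thioredoxin then restores. Prdx1 and Prdx2 are the main cytosolic forms, and Prdx5 is found in mitochondria, peroxisomes and the cytosol. Prdx1 (chr4:116685599-116700000, GRCm38.p6) was 404 and 439 FPKM in the Lgr5-CREPTWT mice and 354 and 346 FPKM in the Lgr5-CREPTKO mice. Prdx2 (chr8:84969622-84974811, GRCm38.p6) was 191 and 211 FPKM against 170.0 and 167 FPKM. In both genes each Lgr5-CREPTKO mouse was below each Lgr5-CREPTWT mouse. Their log2 fold changes were -0.27 (95% interval -0.46 to -0.07, adjusted p = 0.126) and -0.25 (95% interval -0.45 to -0.05, adjusted p = 0.143). Prdx1 stood at 2.12 and 2.08 times Prdx2 in the Lgr5-CREPTWT mice and at 2.09 and 2.07 times in the Lgr5-CREPTKO mice, so that the proportion of the pair differed little between mice. Prdx5 (chr19:6906697-6910106, GRCm38.p6) was 73.7 and 75.0 FPKM against 71.3 and 72.5 FPKM. The genotypes did not overlap, but the gap was small, at -0.05 on the log2 scale (95% interval -0.21 to 0.12, adjusted p = 0.692).

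Thioredoxin is the small protein that carries electrons from thioredoxin reductase to the peroxiredoxins and to ribonucleotide reductase. Txn1 (chr4:57943373-57956411, GRCm38.p6) was 485 and 625 FPKM in the Lgr5-CREPTWT mice and 419.9 and 388 FPKM in the Lgr5-CREPTKO mice. The genotypes did not overlap, and the second Lgr5-CREPTWT mouse stood well above the other 3. The means were 555 ± 99.4 FPKM and 404 ± 22.7 FPKM (SD, n = 2), a difference of -0.45 on the log2 scale (95% interval -0.80 to -0.09, adjusted p = 0.141 from limma's test). Without the second Lgr5-CREPTWT mouse the log2 fold change was -0.26, a smaller difference than the -0.63 obtained without the first. Txnrd1, the cytosolic reductase that recharges thioredoxin, was 73.5 and 75.0 FPKM against 72.1 and 73.5 FPKM, a log2 fold change of -0.03. Txnip, which binds and inhibits thioredoxin, was 307 and 269 FPKM against 322 and 359 FPKM, which is 0.24 on the log2 scale (adjusted p = 0.225). The ratio of Txn1 to Txnip was 1.58 and 2.32 in the Lgr5-CREPTWT mice and 1.30 and 1.08 in the Lgr5-CREPTKO mice. Since Txn1 was lower and Txnip higher without overlap, this ratio had to separate the genotypes and only restates the values of each gene.

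Sod1 (chr16:90220762-90226333, GRCm38.p6) was 435 and 482 FPKM in the Lgr5-CREPTWT mice and 423 and 386 FPKM in the Lgr5-CREPTKO mice. The genotypes did not overlap, although the nearest mice of each were close, and the log2 fold change was -0.18 (95% interval -0.41 to 0.06, adjusted p = 0.301). It was -0.11 without the second mouse of either genotype, and the transcript shares 23.1% of its 50-base words with Gm8566, which has no row in the table. Sod2 (chr17:13007839-13018119, GRCm38.p6) was 25.2 and 24.0 FPKM against 25.25 and 24.8 FPKM. The genotypes of Sod2 overlapped, and the difference was 0.02 on the log2 scale (95% interval -0.17 to 0.22, adjusted p = 0.879). Catalase (chr2:103453904-103485153, GRCm38.p6) was the only one of the 10 genes with both Lgr5-CREPTKO values above both Lgr5-CREPTWT values. It was 77.6 and 76.15 FPKM in the Lgr5-CREPTWT mice and 95.9 and 94.3 FPKM in the Lgr5-CREPTKO mice. The means were 76.9 ± 1.0 FPKM and 95.1 ± 1.17 FPKM (SD, n = 2), a level 23.7% higher. The log2 fold change was 0.31 (95% interval 0.14 to 0.47, adjusted p = 0.0741 from limma's test). Relative to Gpx2, catalase was 0.162 and 0.119 in the Lgr5-CREPTWT mice and 0.333 and 0.264 in the Lgr5-CREPTKO mice. Cat was higher and Gpx2 lower without overlap, so this ratio had to separate the genotypes and is no further evidence of a difference.

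Several of these transcripts are short, and fold change varied with transcript length over the whole table. Among genes tested with transcripts up to 1000 bases the median log2 fold change was -0.22, and 48.2% had both Lgr5-CREPTKO values below both Lgr5-CREPTWT values. Among those of 1000 to 1500 bases the median was -0.15, and beyond 4000 bases it was 0.10, with 15% of genes lower in this way. For the 261 genes of 1000 to 1500 bases at 50 FPKM or more, the median was -0.16 and the share 64.0%. Gpx1, Gpx2, Prdx2, Prdx5 and Txn1 have transcripts in that band, from 1051 bases (Txn1) to 1500 bases (Prdx2), and Sod1 and Gpx4 are shorter, at 641 and 959 bases. Cat has 2613 bases, and genes of 2500 to 4000 bases at this level had a median of 0.03.

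**Figure D3:**
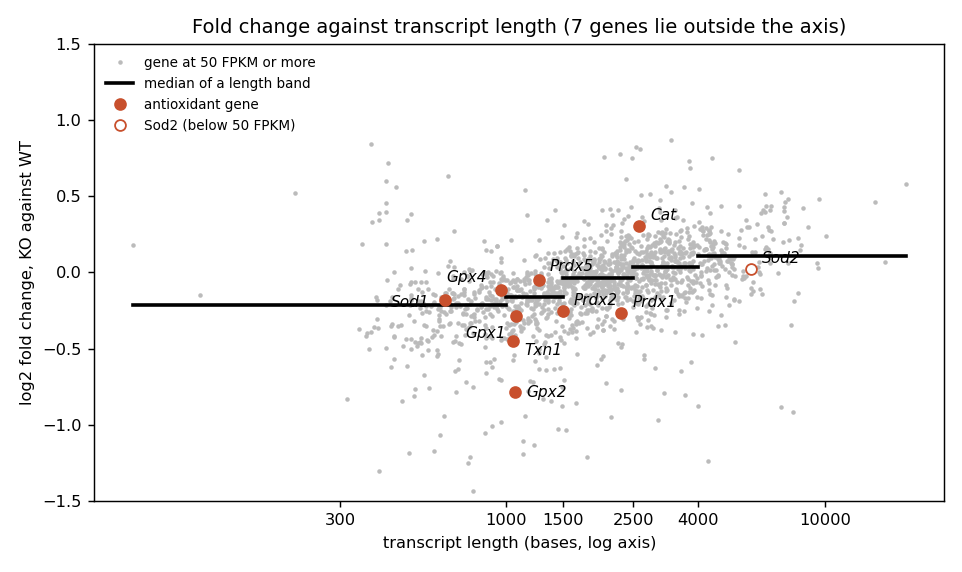
Log2 fold change (Lgr5-CREPTKO against Lgr5-CREPTWT) against transcript length on a log axis for 1588 genes at 50 FPKM or more (grey), with the median of each length band (black bars) and the 10 antioxidant genes (red; Sod2 open, since it is below 50 FPKM). The medians run from -0.22 in the shortest band to 0.11 in the longest, Gpx2 lies well below the bar of its band and Cat above its own.

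After loess trends with transcript length and GC content were taken out from each library, the median log2 fold change of the 10 genes was -0.07 and that of all genes tested was 0.01. Gpx2 kept the largest difference, at -0.60 (95% interval -1.02 to -0.18, adjusted p = 0.150 from limma's test), and its genotypes still did not overlap. Cat was 0.35 (95% interval 0.19 to 0.50, adjusted p = 0.0737), again without overlap. Txn1, Prdx1, Gpx1 and Prdx2 were at -0.23, -0.16, -0.12 and -0.12, and Sod1, Gpx4 and Prdx5, which were below 0 on the deposited scale, were at 0.09, 0.06 and 0.08. Again 0 of the 10 genes were called at an adjusted p below 0.05, where 1.11% of all genes tested lay lower and 0.111% lay higher with such a p. At an unadjusted p below 0.05 there were then 1 lower gene, Gpx2, and 1 higher gene, Cat, where 11.7% and 8.09% of all genes tested were. Both Lgr5-CREPTKO values then lay below both Lgr5-CREPTWT values in 4 of the 10 genes (Gpx2, Prdx1, Prdx2 and Sod2) and above them in 2 (Cat and Prdx5), where 26.4% and 27.2% of all genes tested were, and 4 overlapped, as did 46.4% of all genes tested. Whether the length trend comes from the cells or from the preparation of the libraries was not tested.

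The partners of these enzymes were described from 9 lists with 89 genes in all, of which 76 were tested. By limma's test 3 were lower at an adjusted p below 0.05 (Noxo1, Noxa1 and Nqo1) and 0 were higher, where 2.67% and 0.412% of all genes tested were, and of these Noxo1 and Noxa1 also passed the threshold on the fold change. With any 1 of the 4 mice left out, no gene of the table was called, so those fits say nothing on these 3 genes. The median log2 fold change over the 76 genes was -0.02. Among the other members of the same families, 5 of 10 were tested and 0 were called, with a median of -0.08. These were Gpx3, Prdx3, Prdx4, Prdx6 and Txn2, while Gpx5, Gpx6, Gpx7, Gpx8 and Sod3 were under 0.5 FPKM in every library. Prdx3, the mitochondrial peroxiredoxin, was 92.0 and 94.0 FPKM against 96.5 and 92.3 FPKM. Gpx3, the secreted glutathione peroxidase, was 1.05 and 1.5 FPKM against 0.290 and 0.640 FPKM (log2 fold change -0.89, adjusted p = 0.156). Prdx4, the peroxiredoxin of the endoplasmic reticulum, was 72.8 and 61.1 FPKM against 59.9 and 58.5 FPKM (log2 fold change -0.17, adjusted p = 0.375), and the log2 fold change was -0.04 without the first Lgr5-CREPTWT mouse.

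Thioredoxin partners (9 tested) and genes of glutathione supply and glutaredoxins (9 tested) had 0 calls, with medians of -0.03 and 0.10. Sesn2, a stress-inducible regulator of peroxiredoxin recycling, was 7.21 and 6.95 FPKM in the Lgr5-CREPTWT mice and 10.5 and 9.67 FPKM in the Lgr5-CREPTKO mice (log2 fold change 0.48, adjusted p = 0.0719). Glrx, a glutaredoxin that uses glutathione to reduce protein disulfides, was 128 and 118 FPKM against 153 and 158 FPKM (log2 fold change 0.34, adjusted p = 0.0798). Gclc, the catalytic subunit of the rate-limiting enzyme of glutathione synthesis, was 19.0 and 21.5 FPKM against 27.6 and 25.15 FPKM (log2 fold change 0.38, adjusted p = 0.109). Txnrd3, a thioredoxin reductase best known from testis, was 6.27 and 4.29 FPKM against 7.0 and 9.0 FPKM (log2 fold change 0.57, adjusted p = 0.196), and the log2 fold change was 0.32 without the second Lgr5-CREPTWT mouse. In each of these 4 genes both Lgr5-CREPTKO mice were above both Lgr5-CREPTWT mice, and none passed the threshold.

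NADPH supplies the electrons for both systems, and 0 of its 8 listed genes were called. G6pdx, which opens the pentose phosphate pathway, was 31.8 and 28.9 FPKM against 21.0 and 25.6 FPKM (log2 fold change -0.38, adjusted p = 0.146), and the log2 fold change was -0.24 without the first Lgr5-CREPTKO mouse. Nnt, the mitochondrial transhydrogenase, was 22.8 and 23.2 FPKM against 51.3 and 25.0 FPKM. Its log2 fold change of 0.63 rested on the first Lgr5-CREPTKO mouse and was 0.12 without that mouse.

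Nrf2 is the transcription factor that induces many of these genes under oxidative stress, and its pathway list, with iron storage genes, had 1 of 11 genes called. Nqo1, a quinone reductase and a classical Nrf2 target, fell from 8.11 and 6.80 FPKM to 3.86 and 4.10 FPKM, a log2 fold change of -0.82 (95% interval -1.16 to -0.49, adjusted p = 0.0492 from limma's test). Over 14 alternative settings its log2 fold change stayed between -0.94 and -0.68, and the adjusted p ran from 0.0422 to 0.305. In 5 of these settings no gene of the table was called, and in the other 9 the call on Nqo1 was lost in 7. Nfe2l2, which encodes Nrf2, was 83.8 and 81.6 FPKM against 82.5 and 81.2 FPKM, and the target Gclm was 20.3 and 24.0 FPKM against 23.6 and 21.3 FPKM. In both of these the genotypes differed little and overlapped. Bach1, also of this list, was 18.1 and 17.1 FPKM against 22.9 and 22.3 FPKM (log2 fold change 0.35, adjusted p = 0.0835 from limma's test). Gclc, of the same glutathione list as Gclm, was higher in both Lgr5-CREPTKO mice. Of the 11 genes of the Nrf2 list, 2 were lower and 2 higher without overlap, and 7 overlapped. Over all genes tested the shares were 31.0%, 25.6% and 43.4%.

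Selenoprotein synthesis (8 tested) and other selenoproteins (11 tested) had 0 calls, with medians of 0.01 and -0.11. Sephs2, which makes the selenium donor for selenocysteine, was 77.0 and 88.1 FPKM against 64.4 and 67.3 FPKM (log2 fold change -0.32, adjusted p = 0.121). Selenom, listed under its older symbol Selm, was 23.1 and 44.2 FPKM against 15.25 and 10.3 FPKM (log2 fold change -1.32, adjusted p = 0.109), and the log2 fold change was -0.85 without the second Lgr5-CREPTWT mouse. Selenon, listed as Sepn1, was 2.07 and 2.18 FPKM against 3.59 and 3.50 FPKM (log2 fold change 0.62, adjusted p = 0.0779). Eefsec, the elongation factor for selenocysteine, was 12.8 and 11.7 FPKM against 14.3 and 15.6 FPKM (log2 fold change 0.28, adjusted p = 0.173). The selenoprotein genes thus included members on either side of 0. Of the 11 other selenoproteins, 6 were lower and 3 higher without overlap, where 31.0% and 25.6% of all genes tested were. Selenoh, listed as 2700094K13Rik, was 47.1 and 47.7 FPKM against 35.2 and 31.7 FPKM (adjusted p = 0.0530 from limma's test). Its log2 fold change was -0.50, and -0.26 with length and GC trends removed. Copper delivery and peroxisome import (8 tested) had 0 calls and a median of -0.05. In this list Ccs, the copper chaperone of Sod1, was 43.1 and 38.6 FPKM against 41.9 and 42.8 FPKM. Slc31a1, the plasma membrane copper importer, was 32.7 and 33.0 FPKM against 27.9 and 27.0 FPKM (log2 fold change -0.25, adjusted p = 0.120). Pex13, of the peroxisomal import machinery that catalase uses, was 11.3 and 11.6 FPKM against 10.3 and 10.1 FPKM (log2 fold change -0.16, adjusted p = 0.325).

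**Figure D4:**
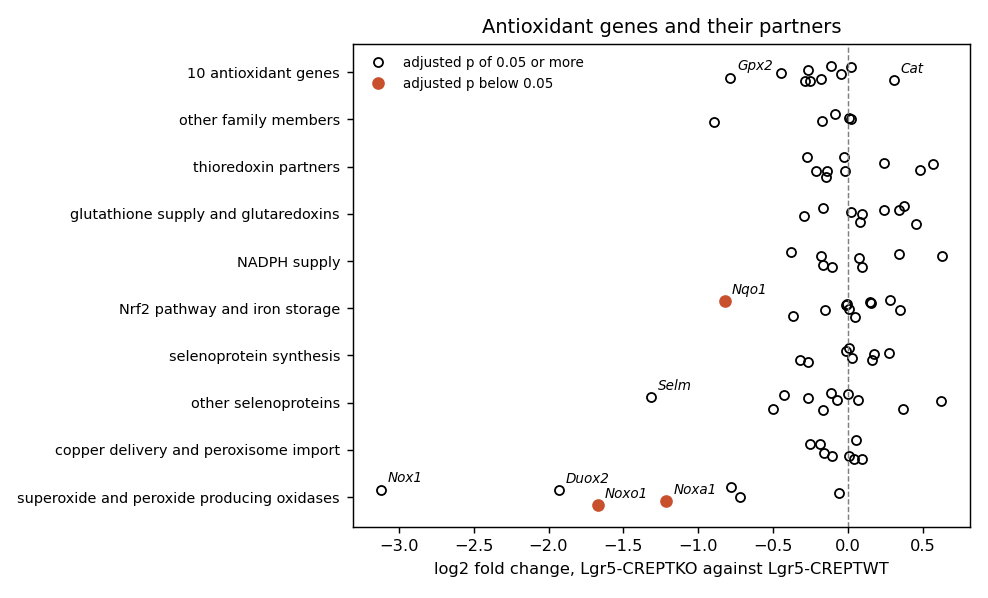
Log2 fold change (Lgr5-CREPTKO against Lgr5-CREPTWT) of the 10 antioxidant genes and of the 76 genes tested from 9 partner lists, 1 point per gene, with an adjusted p below 0.05 in red. Only Nqo1, Noxo1 and Noxa1 are red, and all 7 genes of the oxidase list lie below 0, with Xdh close to it at -0.06.

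Of the 9 lists, the one with the median furthest from 0 was that of the oxidases that produce superoxide and peroxide, at -1.21, and 2 of its 7 genes tested fell. Noxo1 and Noxa1, the organiser and activator subunits of the epithelial NADPH oxidase Nox1, stood at -1.67 and -1.21 on the log2 scale, and limma's adjusted p was 0.0280 and 0.0376. Without the filter on low values limma's adjusted p was 0.1165 and 0.1302, and without the intensity trend 0.0655 and 0.0775. These calls thus depend on the filter and on how variance is shared. Noxo1 was 42.5 and 39.5 FPKM against 11.2 and 14.0 FPKM, and Noxa1 was 43.1 and 51.7 FPKM against 17.5 and 23.0 FPKM. Nox1 itself was 5.87 and 12.5 FPKM against 0.120 and 1.27 FPKM (adjusted p = 0.0650), and Duox2, a peroxide-producing oxidase, was 7.74 and 11.9 FPKM against 1.48 and 3.05 FPKM (adjusted p = 0.0595). Cyba, the membrane subunit that Nox1 shares with other oxidases, was 94.6 and 123 FPKM against 58.75 and 72.6 FPKM (log2 fold change -0.72, adjusted p = 0.0863). From the highest to the lowest library, Gpx2, Nox1, Noxa1, Cyba and Duox2 all ran from the second to the first Lgr5-CREPTWT mouse and then from the second to the first Lgr5-CREPTKO mouse. Noxo1 differed from this order in its Lgr5-CREPTWT mice. Xdh, also of this list, overlapped between genotypes, at 9.56 and 13.3 FPKM against 7.68 and 15.1 FPKM. Its log2 fold change was -0.06, and it was highest in the second Lgr5-CREPTKO mouse. Of the 7 oxidase genes tested, 6 were lower in both Lgr5-CREPTKO mice, against 31.0% of all genes tested. Where both Lgr5-CREPTWT values exceed both Lgr5-CREPTKO values, few orders are possible, and the share of all genes with this order was not counted.

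**Figure D5:**
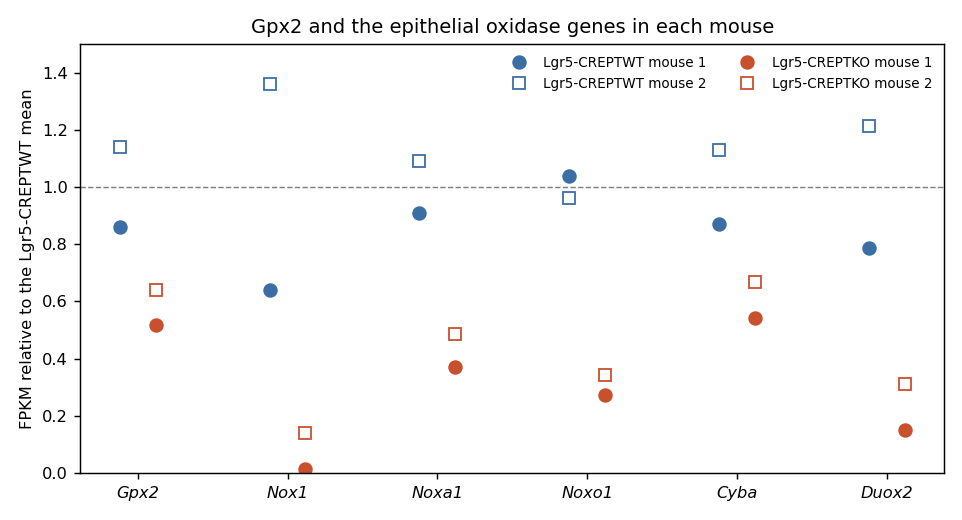
FPKM of Gpx2 and of 5 oxidase genes in each mouse, divided by the mean of the 2 Lgr5-CREPTWT mice (dashed line at 1), with Lgr5-CREPTWT in blue and Lgr5-CREPTKO in red. In each gene drawn both red points lie below both blue points, and the second mouse of each genotype is the higher one, except among the Lgr5-CREPTWT mice in Noxo1. Duoxa2 and Xdh, also tested in the oxidase list, are not drawn, and Xdh overlapped between genotypes.

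The summed levels of goblet cell and of enteroendocrine markers both followed the same order of libraries as Gpx2. Among goblet genes, Muc2, Tff3 and Spink4 followed it, while Agr2 and Fcgbp did not in their Lgr5-CREPTKO mice. The 8 goblet markers summed to 1473 and 2457 FPKM in the Lgr5-CREPTWT mice and to 809 and 941 FPKM in the Lgr5-CREPTKO mice, with both Lgr5-CREPTKO values lower in 7 of the 8, against 31.0% of all genes tested. Among these, Tff3, a secreted goblet cell peptide, was 537 and 937 FPKM against 300.4 and 324 FPKM. The 12 enteroendocrine markers summed to 200.5 and 224 FPKM against 59.4 and 81.1 FPKM. Of these, 11 of 12 were lower in both Lgr5-CREPTKO mice, against 31.0% of all genes tested. At an adjusted p below 0.05 in limma's test, 6 of the 12 enteroendocrine and 1 of the 8 goblet markers were called lower. That share was 2.67% over all genes tested, and stem cell, Paneth, enterocyte and tuft markers had 0 calls. The 11 stem cell markers summed to 6213 and 6003 FPKM against 6730 and 6525 FPKM, with 9 of 11 higher in both Lgr5-CREPTKO mice, against 25.6% of all genes tested. The 7 Paneth markers, of another secretory cell, summed to 1401 and 1013 FPKM against 833 and 2452 FPKM. Of them 1 was lower in both Lgr5-CREPTKO mice, against 31.0% of all genes tested. The 12 enterocyte markers summed to 487 and 684 FPKM against 437 and 753 FPKM, with 1 higher in both, against 25.6% of all genes tested. Tuft cell markers summed to 19.55 and 41.15 FPKM against 16.2 and 6.57 FPKM. The 5 of them tested were all lower in both Lgr5-CREPTKO mice, against 31.0% of all genes tested. The part of these cells in the level of Gpx2 or of any other gene here was not tested, and in bulk RNA fewer cells of a type and less RNA per cell cannot be told apart. Immediate early and heat shock genes summed to 1022 FPKM in the second Lgr5-CREPTWT mouse and to between 1902 and 2283 FPKM in the other 3 libraries. All 7 of the antioxidant genes with lower values in both Lgr5-CREPTKO mice (Gpx1, Gpx2, Prdx1, Prdx2, Prdx5, Txn1 and Sod1) were highest in that mouse, and the part of this in their levels was not tested. Genes chosen as lower in both Lgr5-CREPTKO mice must be highest in a Lgr5-CREPTWT mouse, and the share over all genes was not counted. Without the second Lgr5-CREPTWT mouse, the log2 fold changes were -0.58 in Gpx2, -0.26 in Txn1, -0.21 in Gpx1 and in Prdx1, -0.18 in Prdx2, -0.11 in Sod1 and -0.04 in Prdx5.

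Promoter sequences were read from RefSeq on GRCm38.p6, 250 bases before to 50 bases after each gene start, for all 10 genes. They were searched on both strands for TGACNNNGC, the core of the antioxidant response element to which Nrf2 binds, and for CTTTGAT, a core to which TCF factors of the Wnt pathway bind. The first was found in 2 of the 10 genes, Prdx1 and Sod1, and in 14.0% of 27025 genes. The second was found in 0 of the 10 and in 4.3% of all genes. The stretches with a match are shown 5′ to 3′ on the strand of the gene, with the match, which in both lies on the opposite strand, in capitals.
Prdx1: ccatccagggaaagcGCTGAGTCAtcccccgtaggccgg
Sod1: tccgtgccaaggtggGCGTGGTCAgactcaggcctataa
They lie at chr4:116685451-116685489 and chr16:90220691-90220729, both on the plus strand. Elements further from the gene start were not searched, and a match or its absence in these windows says nothing on whether a factor binds. Prdx1 and Sod1 had log2 fold changes of -0.27 and -0.18, and whether either motif bears on any fold change was not tested.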

How the data were processed

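The authors deposited FPKM values per gene and mouse. By the methods of the paper, Bowtie2 aligned the reads to GRCm38.p6 transcripts and RSEM estimated expression, and the submitters' processing notes add HISAT and mm10. Samples were grouped by their titles, 1 library per mouse by the study's legends, and same-numbered mice of the genotypes are different animals. The members and lists were chosen with earlier results of these data known. The paper used a count model, which needs counts. Here limma 3.58.1 in R 4.3.3 (intensity trend, moderated test) was applied to log2(FPKM + 0.5), with a filter of 0.5 FPKM on the mean and a call at an adjusted p below 0.05. The fit was checked on simulated data with planted changes larger than those of the antioxidant genes and with no length trend. How well it finds changes as small as theirs was not checked. FPKM is relative to each library's total. For length and GC content 1 transcript per gene was taken from GENCODE M21 (99% of genes tested), and their trends were removed from each library by loess. Named partners are those called in a list or, with none, the 2 with the largest non-overlapping differences, with Nox1 and Duox2. Prdx3, Txnrd1, Txnip, Nfe2l2, Gclm, Bach1, Selenoh, Ccs, Cyba and Xdh were chosen after their values were seen. Of the list genes, 10 were matched by an older symbol and 1 of the 89 partners was not matched. Python 3.11.15 was used. Alternatives changed the pseudocount, filter, scaling, variance trend, length and GC trends and replicate block, or left out each mouse.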

Additional observations from a re-analysis of the deposited data

How the results depend on the processing

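Over 14 alternatives, the 10 antioxidant genes gave 140 log2 fold changes, of which 131 kept direction and side of the threshold, 8 reversed and 1 passed the threshold. Gpx1, Gpx2, Prdx1, Prdx2, Txn1 and Cat never reversed. With length and GC trends removed, Gpx4 reversed to 0.0615, Prdx5 to 0.0822, Sod1 to 0.0851, Sod2 to -0.0189 and, among the partners, Prdx4 to 0.0390. Prdx5 also reversed to 0.0291 with equal FPKM totals and to 0.00218 with quantile normalisation. With equal totals Gpx1 was at -0.21, Sod1 at -0.10 and Gpx4 at -0.04, while Gpx2 was at -0.71 and Cat at 0.38. With each mouse left out in turn, Gpx4 ran from -0.235 to 0.00729 (without the first Lgr5-CREPTKO mouse) and Sod2 from -0.0107 (without the second Lgr5-CREPTWT mouse) to 0.0576. With the replicate block, 1 of the 10 genes was called lower, Gpx2 (adjusted p = 0.0412), where 0 were called otherwise, and calls over all genes went from 389 to 183; same-numbered mice are different animals and their deviations did not correlate (-0.03), so this fit has no basis in the design. Of the partner genes, 3 were called lower. The count was 5 with the replicate block (Cyba, Duox2, Nox1, Noxa1 and Noxo1). It was 5 with a mean of at least 5 FPKM (Duox2, Noxa1, Noxo1, Nqo1 and Selenoh), 0 with no filter on low values and 0 with no intensity trend. The genes called over the whole table were 563 with a mean of at least 5 FPKM, 154 with the trends removed, 4 with no intensity trend and 0 with no filter. The loss of calls without the trend or the filter ran over the whole table and is not particular to these genes. With all mice kept in those fits, it shows that calls depend on the filter and on how variance is shared. The fits with a mouse left out say nothing on calls of single genes. The cause of these differences was not tested. Read numbers are unknown, so counting error could not be given.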
